A study of Mus musculus with 4 samples.

Results

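The let-7 family is described here through 9 of the guide strands that the count files list under that name and under miR-98: mmu-let-7a-5p, mmu-let-7b-5p, mmu-let-7c-5p, mmu-let-7d-5p, mmu-let-7e-5p, mmu-let-7f-5p, mmu-let-7g-5p, mmu-let-7i-5p and mmu-miR-98-5p, written without the species prefix from here on. They were taken by name and are 9 of the 1907 mature miRNAs counted, and all 9 passed the filter on low counts. let-7j and let-7k are also counted under the let-7 name, and are described apart from the 9. MicroRNAs were counted by small RNA sequencing of liver from C57BL/6 mice aged 15 weeks. The TAA group had 2 libraries, from mice injected in the peritoneum with thioacetamide, a liver toxin used to produce fibrosis, at 200 mg per kg, 3 doses per week over 10 weeks. The control group had 2 libraries, labelled only as control, and no vehicle is named for these mice. The design text calls the libraries biological replicates but names no animals, so p-values measure the spread between these libraries, which may be technical in part.

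let-7 was first found in the worm Caenorhabditis elegans, where it times the passage from larva to adult, and its relatives are abundant in most differentiated mammalian tissues. All members carry the same seed, the bases that pair with target mRNAs, and known mammalian targets include Ras genes, Hmga2 and Lin28. The RNA-binding protein LIN28 in turn blocks the processing of let-7 precursors. The family comes from several hairpins, some of them transcribed together with hairpins of the miR-99/miR-100 and miR-125 families. The mature guides are shown because the family is defined by its seed, and because the few bases that tell members apart decide to which row a read is assigned. Sequences are from RefSeq (GRCm38.p6), 5′ to 3′, with the seed, bases 2 to 8, in capitals.
let-7a-5p: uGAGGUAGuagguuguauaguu
let-7b-5p: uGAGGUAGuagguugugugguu
let-7c-5p: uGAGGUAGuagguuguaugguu
let-7d-5p: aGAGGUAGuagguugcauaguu
let-7e-5p: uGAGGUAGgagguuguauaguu
let-7f-5p: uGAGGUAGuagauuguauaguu
let-7g-5p: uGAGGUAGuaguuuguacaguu
let-7i-5p: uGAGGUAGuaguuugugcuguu
miR-98-5p: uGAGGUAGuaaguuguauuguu

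All 9 guides had an entry, all are 22 bases long, and 14 of the 22 positions are the same in every guide. Counted from 1 at the 5′ end of let-7a-5p, let-7c-5p differs by A19G, let-7e-5p by U9G and let-7f-5p by G12A. Of the 36 pairs of guides, 4 differ at 1 position and 10 at 2, and no pair differs at more than 6. The sources used here do not give the number of mismatches allowed in alignment, so a read with 1 changed base could have been counted for a sister, and this was not tested. The mature sequences of let-7a-5p, let-7c-5p and let-7f-5p each lie in 2 hairpins, so their counts cannot be divided between loci.

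In the annotation of GRCm38 the 12 hairpins of the family lie at 8 places. let-7d, let-7f-1 and let-7a-1 span 2261 bases of chromosome 13 on the minus strand, from 48536012 to 48538272, within exons of the long non-coding RNA 6720427I07Rik. let-7c-2 and let-7b lie on the plus strand of chromosome 15, from 85706603 to 85707403, within exons of the non-coding transcript Lncppara. let-7c-1 (chromosome 16, 77599657 to 77599750) lies with miR-99a and miR-125b-2 in an intron of Mir99ahg. let-7a-2 (chromosome 9, 41536716 to 41536811) lies with miR-100 and miR-125b-1 in introns of 3110039I08Rik. let-7e (chromosome 17, 17830352 to 17830444) lies between miR-99b and miR-125a, all 3 within 692 bases of Spaca6. There the hairpins of miR-99b and let-7e are intronic, and that of miR-125a overlaps an exon. let-7f-2 and miR-98 are neighbours in an intron of Huwe1 on chromosome X, from 151912346 to 151913321. let-7g lies in an intron of Wdr82 on chromosome 9 (106178840 to 106178927), and let-7i in an exon of the transcribed pseudogene D630033A02Rik on chromosome 10 (122985640 to 122985724).

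The libraries held 42609845 to 48878003 miRNA counts, and levels below are in CPM, the usual depth-scaled count, computed here with edgeR's TMM factors. miR-122-5p, the liver-specific miRNA, was present at 17376 and 17500 CPM in the TAA libraries and at 18285 and 21608 CPM in the controls. TAA 2 stood apart by its 5 erythroid miRNAs, which summed to 2627 CPM there and to 731 CPM in TAA 1, against 445 and 274 CPM in the controls. Results were therefore also computed without each library.

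As a whole, the family took a similar part of the miRNA pool in treated and untreated liver. The 9 guides summed to 4.513% and 4.800% of miRNA counts in the TAA libraries, against 4.511% and 4.099% in the controls. Both TAA shares lay above both control shares, but those of TAA 1 and control 1 were nearly equal. The 95% Wilson intervals of the shares reached from 4.507% to 4.519% in TAA 1 and from 4.0929% to 4.1043% in control 2, which covers counting error only. On the TMM scale the sum was 43526 and 45732 CPM in the TAA libraries and 45404 and 44319 CPM in the controls, with overlapping groups and a log2 ratio of group means of -0.0075. The sign of this ratio depended on the scaling: it was 0.11 with library size alone and -0.18 with upper-quartile factors. Under those settings the 644 miRNAs tested had median log2 fold changes of 0.12 and -0.17, near those of the sum. Scaling factors shift all miRNAs nearly alike, so this likeness adds nothing to the TMM result. In bulk liver, fewer cells of a type and less RNA per cell cannot be told apart.

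Members differed widely in level, and let-7f-5p and let-7a-5p led in every library. Since all guides have 1 length, their CPM can be ordered, although ligation and amplification bias between sequences was not measured. let-7f-5p led with a mean of 20408 ± 889 CPM (SD, n = 4 libraries, both groups), was the 10th to 12th most counted miRNA of each library and made up 45.0% and 45.4% of the family's counts in the TAA libraries, against 43.6% and 48.5% in the controls. let-7a-5p followed with 8149 ± 424 CPM. let-7c-5p (5874 ± 587 CPM) and let-7g-5p (5283 ± 372 CPM) had overlapping ranges, and changed places in control 2. Next came let-7b-5p (1671 ± 172 CPM), let-7d-5p (1484 ± 76.9 CPM) and let-7i-5p (1395 ± 168 CPM), each overlapping its neighbour in this order. miR-98-5p (286 ± 8.57 CPM) and let-7e-5p (195 ± 43.7 CPM) were the least abundant, and let-7e-5p was the 96th to 108th most counted miRNA of a library.

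**Figure D1:**
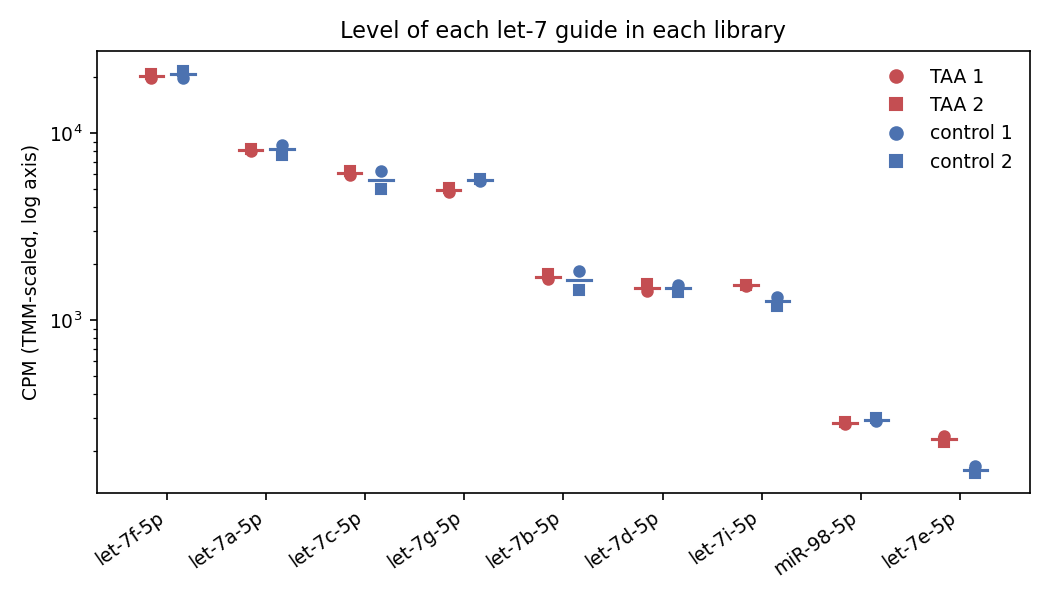
Level of each of the 9 guides in each library, in TMM-scaled CPM on a log axis, ordered by mean. Points are libraries (TAA red on the left of each pair, control blue) and bars are means of 2 libraries. let-7f-5p lies near 20408 CPM and let-7e-5p near 195 CPM, and the groups stand clearly apart in let-7e-5p, at 232 CPM in TAA and 158 CPM in control.

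Between TAA-treated and control liver, 1 of the 9 guides changed. let-7e-5p rose, and none fell, while 14.0% of all 644 miRNAs tested rose and 2.64% fell. With the miRNAs between Dlk1 and Dio3 on chromosome 12 removed, 9 of 577 rose and 5 fell, so the 14.0% depends largely on that interval. The median log2 fold change was 0.01 over the guides and -0.0042 over all miRNAs tested. Over the guides it was -0.16 with upper-quartile factors and 0.13 with library size alone. The groups did not overlap in 4 guides: let-7e-5p and let-7i-5p were higher in both TAA libraries, and let-7g-5p and miR-98-5p lower. Of all miRNAs tested, 55.3% had groups that did not overlap, 29.7% with TAA above and 25.6% with TAA below, so 2 of 9 in either direction is near the background. Calls are at an adjusted p under 0.05 in edgeR's quasi-likelihood test, adjusted by Benjamini and Hochberg's method across the 644 miRNAs.

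let-7e-5p, which differs from let-7a-5p just past the seed, had 10929 and 11475 counts in the TAA libraries, against 6967 and 6463 in the controls. Scaled, it measured 240 and 224 CPM in the TAA libraries and 165 and 151 CPM in the controls. Both TAA libraries lay above both controls. It rose 1.47-fold (95% interval 1.19 to 1.82; log2 fold change 0.56, SE 0.13, edgeR adjusted p = 0.0248). As a part of the family's own counts, which needs no scaling between libraries, it took 0.552% and 0.489% in the TAA libraries and 0.362% and 0.341% in the controls. Relative to let-7a-5p it amounted to 3.003% and 2.709% in the TAA libraries and 1.898% and 1.973% in the controls. Such ratios, with 2 libraries against 2, cannot reach a two-sided exact permutation p below 0.333, and they gave that value.

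The call for let-7e-5p did not hold under every setting, although its log2 fold change stayed between 0.39 and 0.67. The edgeR adjusted p was 0.226 without TAA 1, 0.128 without TAA 2 and 0.0959 without control 2, and 0.0371 without control 1. It was 0.109 with upper-quartile factors, where the log2 fold change was 0.39. With the miRNAs between Dlk1 and Dio3 on chromosome 12 removed the edgeR adjusted p was 0.0633, although the log2 fold change there was 0.59. Relative to the median of all miRNAs its log2 fold change was 0.56 with TMM, with upper-quartile factors and with library size alone. Other scaling factors shift all miRNAs nearly alike, so these equal values were fixed in advance and do not bear on the call.

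Of the other guides, let-7i-5p came closest to the threshold. It had 69088 and 79053 counts in the TAA libraries, or 1520 and 1541 CPM, against 56458 and 50714 counts, or 1334 and 1186 CPM, in the controls. The groups did not overlap, but the log2 fold change of 0.28 (SE 0.11) had an edgeR adjusted p of 0.159 (unadjusted 0.0371). let-7i-5p took 3.49% and 3.37% of the family's counts in the TAA libraries and 2.94% and 2.68% in the controls.

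let-7g-5p leaned the other way without passing the test. It measured 4855 and 5097 CPM in the TAA libraries and 5518 and 5661 CPM in the controls, with no overlap (edgeR log2 fold change -0.17, SE 0.097; adjusted p = 0.346). Its part of the family's counts was 11.2% and 11.1% in the TAA libraries, against 12.2% and 12.8% in the controls. miR-98-5p measured 277 and 283 CPM in the TAA libraries and 287 and 298 CPM in the controls, a log2 fold change of -0.061 (SE 0.12).

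The most abundant guides showed no change past the test, and each fold is given with its interval from the fit with TMM factors. let-7f-5p measured 19569 and 20762 CPM in the TAA libraries and 19806 and 21494 CPM in the controls, with a fold of 0.98 (95% interval 0.836 to 1.14). let-7a-5p measured 8008 and 8257 CPM in the TAA libraries and 8669 and 7662 CPM in the controls, with a fold of 0.996 (0.843 to 1.18). The groups overlapped in both. let-7c-5p measured 5985 and 6243 CPM in the TAA libraries and 6253 and 5013 CPM in the controls (fold 1.09, 0.889 to 1.33). let-7b-5p measured 1650 and 1764 CPM in the TAA libraries and 1831 and 1438 CPM in the controls (fold 1.04, 0.839 to 1.30). In let-7b-5p and let-7c-5p, control 2 was the lowest of the 4 libraries and control 1 the highest, so the spread of the controls exceeded the difference between groups. let-7d-5p measured 1420 and 1559 CPM in the TAA libraries and 1540 and 1414 CPM in the controls (fold 1.01, 0.842 to 1.21). These intervals are of edgeR's fit with TMM factors and do not cover the choice of scaling. With upper-quartile factors the log2 fold changes of let-7f-5p and let-7a-5p were -0.21 and -0.17, and with library size alone 0.089 and 0.11. A value inside an interval does not show that the guides were equal.

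**Figure D2:**
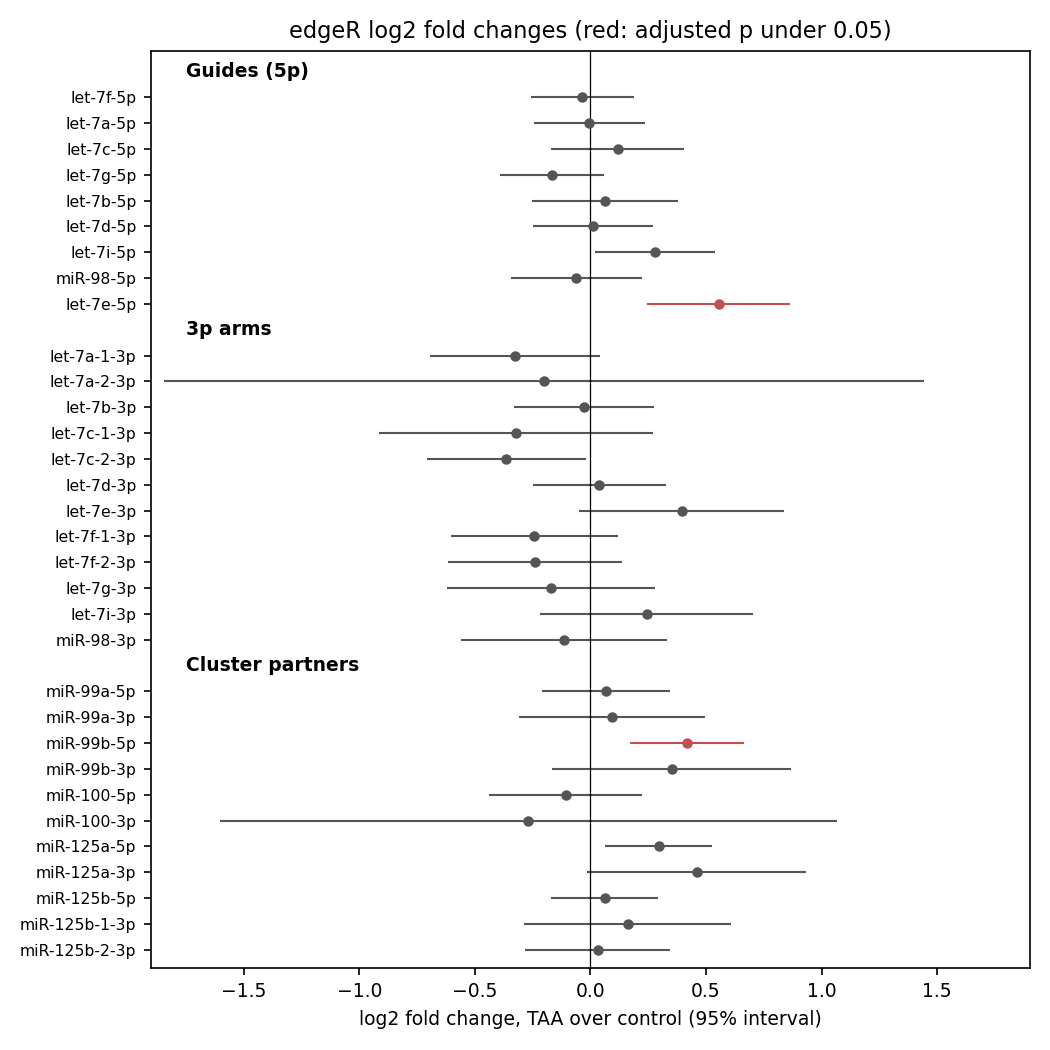
edgeR log2 fold changes, TAA over control, of the 9 guides, the 12 arms on the 3p side of their hairpins and the 11 arms of the miR-99/miR-100 and miR-125 families; horizontal lines are 95% intervals. let-7e-5p at 0.56 and miR-99b-5p at 0.42 are the points with an adjusted p under 0.05, and most other guides lie close to 0.

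The hairpin of let-7e, whose arms the following values compare, reads as below (RefSeq, GRCm38.p6, chr17:17830352-17830444, plus strand), with the 5p guide and the 3p arm in capitals.
let-7e hairpin: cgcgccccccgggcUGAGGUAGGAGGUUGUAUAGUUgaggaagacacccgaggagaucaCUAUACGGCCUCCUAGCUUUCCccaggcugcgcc

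Its neighbours on chromosome 17 were higher in the same libraries, and 1 of them passed the test. miR-99b-5p, of the miR-99/miR-100 family whose targets include mTOR, measured 13044 and 11287 CPM in the TAA libraries and 9058 and 9166 CPM in the controls. It rose 1.34-fold (95% interval 1.13 to 1.58, log2 fold change 0.42, SE 0.11, edgeR adjusted p = 0.0310), with both TAA libraries above both controls. miR-125a-5p, of the family related to the worm miRNA lin-4, measured 4395 and 4140 CPM in the TAA libraries and 3433 and 3520 CPM in the controls. It did not pass the test (log2 fold change 0.30, SE 0.10, edgeR adjusted p = 0.0954), although these groups did not overlap either. With library size alone (0.0129) and with a filter of 10 CPM in 2 libraries (0.0435) it passed.

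The 3p arms of the 3 hairpins, named here after their values were seen, lay above the controls as well. let-7e-3p measured 7.41 and 7.52 CPM in the TAA libraries and 6.09 and 5.26 CPM in the controls (edgeR log2 fold change 0.40 with SE 0.19 and adjusted p = 0.249). miR-99b-3p measured 9.11 and 8.87 CPM in the TAA libraries and 8.31 and 5.78 CPM in the controls, and miR-125a-3p 4.18 and 4.58 CPM in the TAA libraries and 3.26 and 3.11 CPM in the controls. In all 6 arms from this locus both TAA libraries were above both controls, beside 29.7% of all miRNAs tested, and 2 of the 6 rose, beside 14.0%. let-7e-5p, the called guide of this locus, is counted in both tallies, so part of each was set by the choice of locus. The arms come from 1 locus and are not 6 independent observations. As counted, the proportions between miRNAs of the locus varied between libraries. miR-99b-5p had 54.2 and 50.5 counts per let-7e-5p count in the TAA libraries and 55.0 and 60.6 in the controls, and miR-125a-5p had 18.3 and 18.5 in the TAA libraries and 20.9 and 23.3 in the controls. Both were lower in the TAA libraries with no overlap, at the smallest exact permutation p of 0.333. For miR-99b-5p, TAA 1 and control 1 nearly coincided, and the divisor, let-7e-5p, was itself taken up for its rise.

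The call for miR-99b-5p was also lost under some settings. Its edgeR adjusted p was 0.335 without TAA 1 (log2 fold change 0.31), 0.0832 without TAA 2 (0.52), 0.282 with upper-quartile factors (0.25) and 0.0721 without the Dlk1-Dio3 miRNAs (0.45). Relative to the median of all miRNAs its log2 fold change was 0.42 with TMM, with upper-quartile factors and with library size alone, which the near-equal shift of all miRNAs fixes in advance. It held without either control, at 0.0427 without control 1 and 0.0272 without control 2.

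At the other 2 loci that join let-7 with these families, none of the arms passed edgeR's test. In all, 1 of the 11 arms of the miR-99/miR-100 and miR-125 families rose and 0 fell, beside 14.0% and 2.64% of all miRNAs. The median of their log2 fold changes was 0.093, and it was -0.085 with upper-quartile factors and 0.22 with library size alone. From the let-7c-1 locus on chromosome 16, miR-99a-5p measured 2631 and 2267 CPM in the TAA libraries and 2218 and 2460 CPM in the controls (log2 fold change 0.07, SE 0.12). From the let-7a-2 locus on chromosome 9, miR-100-5p measured 5427 and 4039 CPM in the TAA libraries and 5101 and 5096 CPM in the controls (-0.11, SE 0.14). Both overlapped between groups. miR-125b-5p, made by both loci, measured 4924 and 4575 CPM in the TAA libraries and 4478 and 4622 CPM in the controls. Whether the chromosome 17 locus differed from these loci in its response was not tested.

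**Figure D3:**
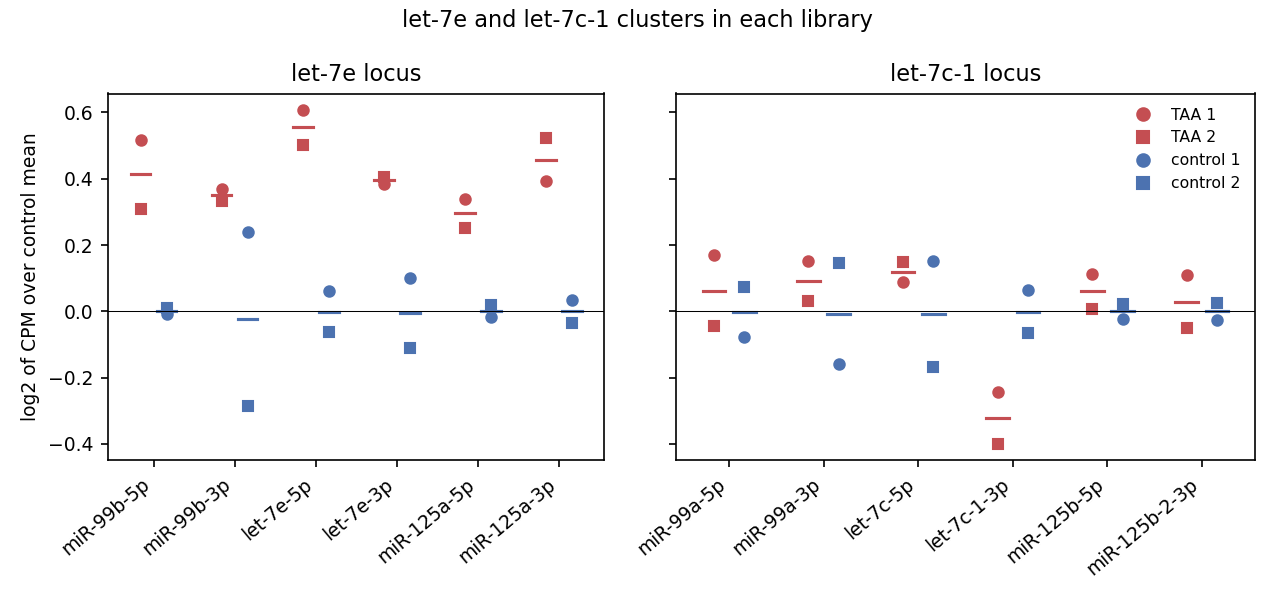
Values in each library, as log2 of CPM over the mean of the controls, for the arms of the let-7e locus (left) and of the let-7c-1 locus (right; let-7c-5p and miR-125b-5p also come from other loci). Points are libraries (TAA red, control blue) and bars are group means of these log2 values. On chromosome 17 all 6 arms have both TAA libraries above both controls. On chromosome 16 the groups overlap in all arms but let-7c-1-3p, which is lower in TAA. That arm had 79 to 91 counts and did not pass the test (edgeR log2 fold change -0.32, SE 0.26, adjusted p = 0.506).

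Markers of other cell types moved in the same libraries, to be read beside the 14.0% of all miRNAs that rose and the 2.64% that fell. The 5 leukocyte miRNAs summed to 1850 and 1628 CPM in the TAA libraries and 874 and 1384 CPM in the controls, and 2 of the 5 rose, miR-150-5p and miR-155-5p. All 5 erythroid miRNAs rose, with sums of 731 and 2627 CPM in the TAA libraries and 445 and 274 CPM in the controls. Of 6 mesenchymal miRNAs 1 rose, miR-214-3p, a share near that of all miRNAs with those between Dlk1 and Dio3 included. The sum of the 6 overlapped at 32228 and 23829 CPM in the TAA libraries and 28176 and 28416 CPM in the controls. The 5 hepatocyte miRNAs summed to 317847 and 328676 CPM in the TAA libraries, below 349916 and 380613 CPM in the controls, and 0 of the 5 passed the test. Of 5 epithelial miRNAs 2 fell, with sums of 360 and 333 CPM in the TAA libraries and 387 and 428 CPM in the controls, and the 2 endothelial miRNAs overlapped. None of the listed markers was at 0 in any library, with a lowest count of 98. The part of these shifts in the rise of let-7e-5p was not tested.

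The 3p arms, which are mostly degraded after the guide is loaded, were scarce beside the guides. The 9 guides had 54.7 and 58.0 counts for each count of the 12 arms in the TAA libraries, against 52.8 and 54.6 in the controls. Of the 12, 0 rose and 0 fell by edgeR's test, beside 14.0% and 2.64% of all miRNAs tested, and DESeq2 and limma-voom also called 0. An unadjusted p under 0.05 was found for 1 of the 12, beside 25.6% of all miRNAs. Over the 12 arms the log2 fold changes had a median of -0.19, with 9 negative, beside 323 negative among all 644 miRNAs tested. The median was -0.37 with upper-quartile factors, with 10 negative, and -0.055 with library size alone, with 7 negative. The groups did not overlap in 7 of the 12, beside 55.3% of all miRNAs. Of these, 5 were lower in TAA, beside 25.6% of all miRNAs, and 2 higher, beside 29.7%. The 5 include let-7a-1-3p and let-7c-2-3p, whose sequences are identical, so the 12 arms are not independent observations.

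let-7d-3p was the most abundant of these arms, with 378 and 394 CPM in the TAA libraries and 394 and 357 CPM in the controls, which overlap. let-7b-3p measured 146 and 140 CPM in the TAA libraries and 144 and 148 CPM in the controls, also with overlap. let-7c-2-3p, whose sequence is identical to that of let-7a-1-3p so that the division of reads between them is uncertain, had the smallest p, with 83.6 and 79.9 CPM in the TAA libraries and 113 and 97.2 CPM in the controls (edgeR log2 fold change -0.36 with SE 0.15 and adjusted p = 0.168). It was lower in both TAA libraries, and among the alternatives run it passed only with upper-quartile factors (log2 fold change -0.53, edgeR adjusted p = 0.0440).

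The ratio of 5p to 3p counts differs widely between hairpins and needs no scaling between libraries. It could be tested in 11 of the 12 hairpins, with at least 20 mean counts in each arm, and let-7a-2 fell below that. let-7d had the most 3p arm relative to its guide, with log2 ratios of 1.91 and 1.99 in the TAA libraries and 1.97 and 1.99 in the controls. let-7e had log2 ratios of 5.02 and 4.89 in the TAA libraries and 4.75 and 4.84 in the controls. For let-7a, let-7c and let-7f the 5p count is shared by 2 hairpins, so each hairpin's own ratio cannot be separated. For let-7a-1 and let-7c-2 the 3p count is uncertain too, since these arms have identical sequences. let-7c-1 had the highest, with 11.7 and 12.0 in the TAA libraries and 11.5 and 11.3 in the controls.

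None of the 11 ratios changed by limma's test, adjusted over 171 hairpins, of which 0 passed, or 0%. Among the 11, let-7c-2 alone had an unadjusted p under 0.05, and over all 171 hairpins 10 did. The log2 ratio of let-7c-2 was 6.16 and 6.29 in the TAA libraries and 5.79 and 5.69 in the controls (difference 0.49, SE 0.16, limma adjusted p = 0.562). That of let-7a-1 was 7.44 and 7.56 in the TAA libraries and 7.15 and 7.21 in the controls (difference 0.32, SE 0.16). let-7f-1 had 8.98 and 9.13 in the TAA libraries and 8.71 and 8.99 in the controls, which overlap, and let-7f-2 had 8.40 and 8.63 in the TAA libraries and 8.39 and 8.23 in the controls. In 5 of the 11 both TAA libraries were above both controls and in 0 below, beside 17.0% of all hairpins in each direction. Since let-7c-1 and let-7c-2 share 1 guide count, these are not 5 independent observations.

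**Figure D4:**
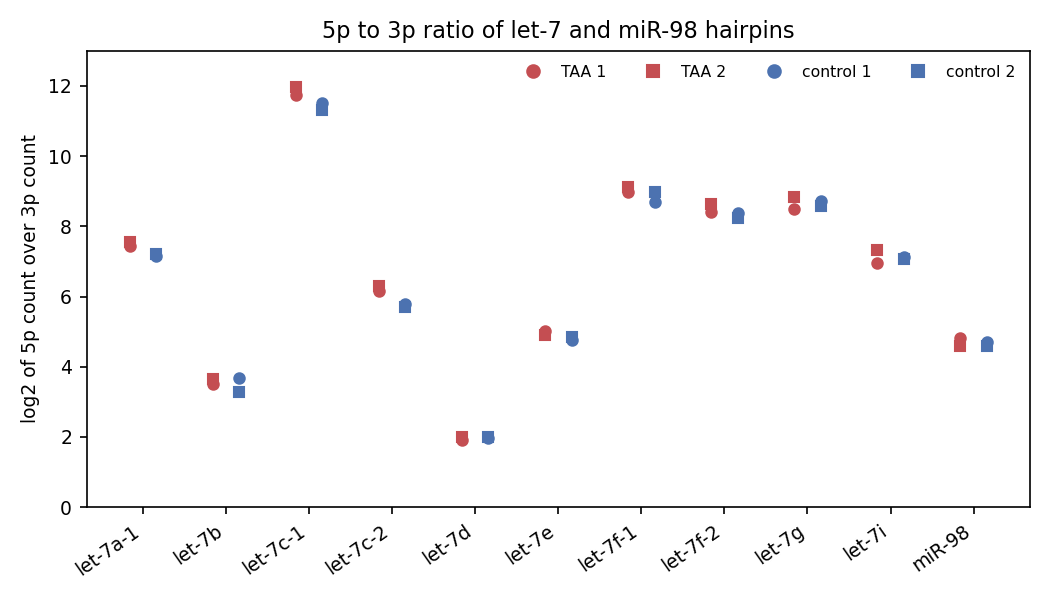
log2 of the 5p count over the 3p count, each plus 0.5, for the 11 hairpins tested. Points are libraries (TAA red on the left of each pair, control blue). Ratios run from 1.91 for let-7d to 12.0 for let-7c-1, and both TAA libraries lie above both controls in 5 of the 11 hairpins, by at most 0.49 on average (let-7c-2).

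The miRNAs outside the family with a pattern most like the summed guides over the 4 libraries were miR-450b-5p, miR-26b-3p and miR-140-3p, at distances of 0.032, 0.056 and 0.061. The distance is Euclidean, on log2 CPM plus 0.5 centred on each miRNA's mean, among 255 miRNAs with at least 10 CPM. Their log2 fold changes were 0.0045, 0.015 and 0.027, and values near 0 follow from the choice by likeness to the summed guides. Nearest to let-7e-5p were miR-214-5p, miR-212-5p and miR-214-3p, at 0.051, 0.091 and 0.18. miR-214-5p measured 14.63 and 13.51 CPM in the TAA libraries and 9.45 and 9.05 CPM in the controls, and miR-212-5p 24.14 and 21.97 CPM in the TAA libraries and 15.4 and 15.4 CPM in the controls. With 4 libraries such likeness is a description only.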

How the data were processed

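The authors deposited raw counts of reads for each mature miRNA, with 1 table for every library. The submitters' processing notes name Bowtie, HTSeq and the mm10 build. The sources used here do not state versions, mismatch settings, trimming, an annotation release or how reads matching more than 1 locus were handled, and the entry for reads without a unique place holds 0 in all tables. Entries that name no miRNA entered neither library sizes nor tests. Reads outside annotated miRNAs made up 22.8% to 26.4% and reads not aligned 7.11% to 8.49% of all reads, and miRNA counts 65.4% to 68.7%. No molecular identifiers are mentioned, and Wilson intervals hold only the error of counting. Chi-square per degree of freedom was 324 between the TAA libraries and 237 between the controls, above sampling noise, so all 4 libraries were used.

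The test was run with edgeR 4.0.16 under R 4.3.3, with filterByExpr, TMM factors and the quasi-likelihood F test, over 644 miRNAs, which hold 99.997% of counts; the biological coefficient of variation was 0.191. The standard error is the log2 fold change over the square root of F. Arm ratios were tested with limma 3.58.1. The procedures were also run on simulated data with larger changes than those of the guides and arm ratios. That run does not show how well changes of this size are found. Hairpin positions and hosts are from GENCODE for GRCm38, which is mm10. Members, lists and tests were chosen with earlier results of these data known. Named are all guides, the 3p arms and cluster partners past the threshold or most abundant, the 3p arm with the smallest p, miR-99b-5p and miR-125a-5p, rows that share the seed, the nearest 3 miRNAs, and the arm ratios of the 3 leading guides. Equally numbered libraries share no stated animal, batch or day. Alternatives were other scaling factors, other filters, DESeq2 1.42.0, limma-voom, a replicate block, removal of the Dlk1-Dio3 miRNAs and leaving out each library. The crossed replicate block was chosen after seeing the data.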

Additional observations from a re-analysis of the deposited data

How the results depend on the processing

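A fit without 1 library assumes that the lone library of its group varies like the other group. Over all miRNAs, 107 changed, 41 with a filter of 10 CPM in 2 libraries, 14 without the Dlk1-Dio3 miRNAs, and 49 to 131 over the fits without 1 library, of which 54 without TAA 1 and 49 without TAA 2. Among the guides, 1 changed, and 0 with upper-quartile factors or without the Dlk1-Dio3 miRNAs, and 0 to 1 over the fits without 1 library. Of the 3p arms, 1 fell with upper-quartile factors (let-7c-2-3p). With those factors 83 of all 644 miRNAs tested rose and 32 fell. With library size alone 107 of 644 rose and 12 fell, and with the 10 CPM filter 36 of 282 rose and 5 fell. Without the Dlk1-Dio3 miRNAs 9 of 577 rose and 5 fell. Of the 11 arms of the miR-99/miR-100 and miR-125 families, 0 changed with upper-quartile factors or without the Dlk1-Dio3 miRNAs, 2 with library size alone or with the 10 CPM filter, and 0 to 1 without 1 library. 

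The log2 ratio of the summed guides was -0.18 with upper-quartile factors and 0.11 with library size alone. Guides near 0 turned sign without passing the test. let-7a-5p and let-7f-5p turned positive, at 0.11 and 0.089 with library size alone, 0.069 and 0.041 with the 10 CPM filter and 0.032 and 0.0036 without the Dlk1-Dio3 miRNAs, and spanned -0.10 to 0.067 and -0.11 to 0.018 without 1 library. miR-98-5p was 0.062 with library size alone and 0.015 with the 10 CPM filter. With upper-quartile factors let-7b-5p was -0.099, let-7c-5p -0.044, let-7d-5p -0.16 and let-7d-3p -0.13. Without 1 library these 4 spanned -0.11 to 0.23, -0.040 to 0.27, -0.056 to 0.075 and -0.039 to 0.092. let-7b-3p was 0.094 with library size alone, 0.047 with the 10 CPM filter, 0.0092 without the Dlk1-Dio3 miRNAs, and -0.065 to 0.0034 without 1 library. The cause of these turns was not tested.

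Arm ratios kept 0 calls with all 4 libraries, and 0 to 1 without 1 library; the 1 was let-7a-2 without control 1, whose 3p arm had 23, 11 and 28 counts there. Without 1 library the log2 differences spanned -0.092 to 0.29 for let-7b, -0.066 to 0.0094 for let-7d, -0.17 to 0.18 for let-7g, -0.13 to 0.23 for let-7i and -0.049 to 0.16 for miR-98.

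With the replicate block, 110 miRNAs changed, and let-7e-5p was the guide among them (log2 fold change 0.56, edgeR adjusted p = 0.0374); no call among the guides, miR-99b-5p, miR-125a-5p, let-7k and the 3 named 3p arms changed. Equally numbered libraries deviated from their group means with a correlation of -0.13 over 644 miRNAs. As the deviations of 2 libraries mirror each other, both numbers give this same value, which cannot exclude a shared batch or day. Since no shared animal, batch or day is stated, the numbers are not taken to pair the libraries. A crossed block, chosen after seeing the data, gave 115 changed miRNAs, 1 guide and 1 of the 11 partner arms. Depth was no limit for the guides, which had at least 6463 counts in each library, but 3p arms such as let-7a-2-3p had 7 to 28.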

Other observations

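let-7j, named here after its values were seen, is counted apart from the 9 guides, has another seed and differs from let-7i-5p by G8U over the first 22 bases; with bases 2 to 8 in capitals it reads as follows.
let-7j: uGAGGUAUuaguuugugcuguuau
It measured 283 and 308 CPM in the TAA libraries and 250 and 238 CPM in the controls, with no overlap (edgeR log2 fold change 0.28 with SE 0.13; adjusted p = 0.221). Relative to let-7i-5p its counts came to 18.62% and 19.99% in the TAA libraries and to 18.71% and 20.03% in the controls, so the proportion overlapped between groups.

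Outside the family, 2 counted miRNAs with a RefSeq sequence share the let-7 seed, let-7k and miR-1961, both annotated on chromosome 5.
let-7k: uGAGGUAGgagguugugug
miR-1961: uGAGGUAGuaguuagaa
Over its 19 bases let-7k differs from let-7b-5p by U9G, and from let-7e-5p by A17G and A19G. It had 192 and 253 counts in the TAA libraries and 350 and 240 in the controls (edgeR log2 fold change -0.60 with SE 0.24; adjusted p = 0.160), and passed the test as lower with upper-quartile factors (0.0475) and without control 2 (0.00829). miR-1961 had 0 and 3 counts in the TAA libraries and 1 and 2 in the controls, and was not tested.

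let-7a-1-3p and let-7c-2-3p have identical sequences in RefSeq, from chromosomes 13 and 15, shown once with bases 2 to 8 in capitals.
let-7a-1-3p and let-7c-2-3p: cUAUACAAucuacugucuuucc
The files nevertheless give them unequal counts, 2093 and 2246 for let-7a-1-3p in the TAA libraries and 2577 and 2210 in the controls. let-7c-2-3p had 1.82 and 1.83 times as many in the TAA libraries and 1.86 and 1.88 times as many in the controls, a proportion that was nearly constant. The sources used here do not say how reads of this sequence were divided, so the values of both arms, and of their arm ratios, are uncertain.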
